A study of Homo sapiens with 4 samples.

Results

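Gene expression in cancer stem-like A2058 cells grown in hypoxia was set against that in the same cells grown in normoxia. The comparison rests on the array titled as stem-like under hypoxia and the array titled as stem-like under normoxia, which are 2 of the 4 arrays of the series. It covered 10579 genes that were detected on at least 1 of the 2 arrays, of 19951 genes with a probe used here. A2058 is an established human melanoma line. Messenger RNA was read on Illumina bead arrays, which report the brightness of probes bound to beads.

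The groups were stem-like hypoxia, stem-like normoxia, parental hypoxia and parental normoxia, with 1 array in each. The stem-like cells had been selected out of the parental line with 100 uM carmustine, a DNA-alkylating drug, for 6 months, and they are therefore 1 selected population. All 4 groups shared DMEM with 10% FBS, penicillin and streptomycin in 5% CO2. The oxygen level, the length of the hypoxia, and whether carmustine was present during it were not stated in the labels. With 1 array on each side no difference was tested, no value has a replicate error, and each fold below is a size seen in these cultures.

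In this text a level is a normalized signal in arbitrary units, and a fold is stem-like hypoxia over stem-like normoxia unless parental cells are named. A gene is called higher or lower when its fold reached 2, a log2 fold of 1 in size. Where a gene was detected on 1 array alone, the other value was raised to the lowest detected signal of its array, 37.2 in stem-like hypoxia and 39.2 in stem-like normoxia, and the fold is given as "at least". The spread between probes of the same gene gives the one gauge of technical error at hand. It came to an SD of 0.23 on the log2 scale over 2319 genes with several detected probes, and it does not cover differences between arrays or cultures. As these are bulk samples, fewer cells of a kind and less RNA per cell cannot be told apart in any value.

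Markers of the expected cell type were present in part. Of 13 melanoma and melanocyte markers with a probe, 8 were detected on at least 1 stem-like array, among them SOX10, which directs melanocyte development, at 979 in stem-like hypoxia and 1223 in stem-like normoxia. The melanocyte genes TYR, TYRP1 and MLANA, PAX3 and S100B were not detected on either array. Of the stem cell associated list, 12 of 23 members had a fold. CD44, a hyaluronan receptor, stood at 2992 in stem-like hypoxia and 2578 in stem-like normoxia, while PROM1, ABCB5, NGFR, POU5F1 and NANOG were not detected. The name stem-like is the labels' own. Of the other cell types, 3 of 9 fibroblast, 1 of 7 keratinocyte, 3 of 7 leukocyte and 2 of 7 endothelial markers had a fold, none of them past 2-fold. Those detected included KRT10 at 1136 in stem-like hypoxia and 1324 in stem-like normoxia, CD68 at 734 in stem-like hypoxia and 729 in stem-like normoxia, and CD14 at 277 in stem-like hypoxia and 227 in stem-like normoxia. LUM stood at 168 in stem-like hypoxia and 215 in stem-like normoxia, and FAP at 96.4 in stem-like hypoxia and 72.1 in stem-like normoxia. LYZ, TEK and ESAM were also detected on both arrays, and COL1A1 in stem-like normoxia alone. PTPRC, PECAM1, CDH5, KRT5, KRT14, PDGFRA and PDGFRB, further markers of those cell types, were not detected.

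Cells meet low oxygen largely through the hypoxia-inducible factors. In normal oxygen, prolyl hydroxylases mark the alpha subunits of these factors for destruction through the VHL protein, and in low oxygen the alpha subunits last, pair with a beta subunit and bind short motifs in target genes. The targets supply glucose, shift its use away from the mitochondria, call for blood vessels, remodel collagen and hold back growth. Since the control acts on the protein, the RNA of the factors themselves need not move, whereas the RNA of their targets does.

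The 250 bases before the annotated start are given for 6 of the 52 genes higher in stem-like hypoxia, picked with their values known, because the groups described turn on them. They come from RefSeq, build GRCh38.p14, and are written 5′ to 3′ on the gene's own strand. Capitals mark the core of the hypoxia response motif, ACGTG or GCGTG, on either strand, where CACGT and CACGC are its reverse complements; a CACGTG match is also an E-box. STC2 lies at chr5:173328415-173328664 on the minus strand, IGFBP3 at chr7:45921273-45921522 on the minus strand and ENO2 at chr12:6914330-6914579 on the plus strand. The first of 2 listed starts of COXFA4L2 lies at chr12:57240763-57241012 on the minus strand, BNIP3 at chr10:131981924-131982173 on the minus strand and TMEM45A at chr3:100492369-100492618 on the plus strand.
STC2: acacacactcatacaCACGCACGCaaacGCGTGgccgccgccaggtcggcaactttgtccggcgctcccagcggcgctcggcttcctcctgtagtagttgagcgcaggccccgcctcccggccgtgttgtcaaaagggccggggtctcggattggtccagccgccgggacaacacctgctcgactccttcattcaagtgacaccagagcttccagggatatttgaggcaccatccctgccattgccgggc
IGFBP3: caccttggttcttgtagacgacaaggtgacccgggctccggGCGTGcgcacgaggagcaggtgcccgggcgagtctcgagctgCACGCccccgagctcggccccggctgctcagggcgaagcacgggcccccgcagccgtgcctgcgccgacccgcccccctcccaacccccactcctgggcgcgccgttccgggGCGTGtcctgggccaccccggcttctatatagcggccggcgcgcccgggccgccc
ENO2: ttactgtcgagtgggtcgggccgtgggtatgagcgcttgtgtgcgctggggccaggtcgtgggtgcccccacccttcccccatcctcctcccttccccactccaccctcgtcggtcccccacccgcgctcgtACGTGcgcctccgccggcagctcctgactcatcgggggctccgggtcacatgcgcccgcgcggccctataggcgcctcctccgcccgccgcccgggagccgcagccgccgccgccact
COXFA4L2: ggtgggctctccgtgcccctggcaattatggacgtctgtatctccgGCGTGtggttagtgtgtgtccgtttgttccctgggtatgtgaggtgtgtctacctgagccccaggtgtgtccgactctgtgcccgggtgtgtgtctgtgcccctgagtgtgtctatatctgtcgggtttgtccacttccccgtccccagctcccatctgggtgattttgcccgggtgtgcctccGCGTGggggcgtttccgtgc
BNIP3: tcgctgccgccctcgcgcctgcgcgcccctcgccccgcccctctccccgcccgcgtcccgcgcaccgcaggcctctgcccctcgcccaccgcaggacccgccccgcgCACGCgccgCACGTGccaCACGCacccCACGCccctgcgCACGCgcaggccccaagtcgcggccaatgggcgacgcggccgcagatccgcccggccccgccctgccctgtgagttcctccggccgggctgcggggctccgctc
TMEM45A: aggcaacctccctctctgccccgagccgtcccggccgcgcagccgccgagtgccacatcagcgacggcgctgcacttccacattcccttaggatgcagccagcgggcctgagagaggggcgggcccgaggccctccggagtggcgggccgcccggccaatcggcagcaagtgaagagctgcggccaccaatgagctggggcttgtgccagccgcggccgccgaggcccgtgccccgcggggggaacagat
The windows of STC2 and IGFBP3 held 3 matches each, that of ENO2 held 1, that of COXFA4L2 held 2 and that of BNIP3 held 6, while the window of TMEM45A held 0. A match is a string of letters that says nothing of binding, and the lack of one says only that these letters are not in this window.

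Hypoxia went with higher RNA of few genes and lower RNA of fewer. In all, 52 of 10579 genes were higher, which is 0.492% of the genes measured, and 19 were lower, which is 0.18%. Of the higher genes, 39 were detected on both arrays and 13 are bounds, and of the lower genes 18 were detected on both and 1 is a bound. The median log2 fold of all genes was 0.00. The number of calls depends on background handling: the authors' second table, which holds normalized values and, judged from them, no background correction, gave 10 higher and 2 lower genes. Every one of the 52 and the 19 kept its direction under the 8 settings tried, and 10 and 2 of them stayed past 2-fold under all 8. All settings reuse the same 2 arrays. A looser detection threshold and no detection filter could not take a called gene below the line, so these settings were no check on the calls.

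The higher and lower genes sat at different levels. Among the 9695 genes detected on both arrays, the 4848 dimmer genes held 19 of the higher and 15 of the lower ones, and the 4847 brighter genes held 20 and 3. The log2 folds of the dimmer genes had an SD of 0.32 and those of the brighter genes 0.25. Most lower calls therefore rest on dim signals, where folds spread more.

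**Figure D1:**
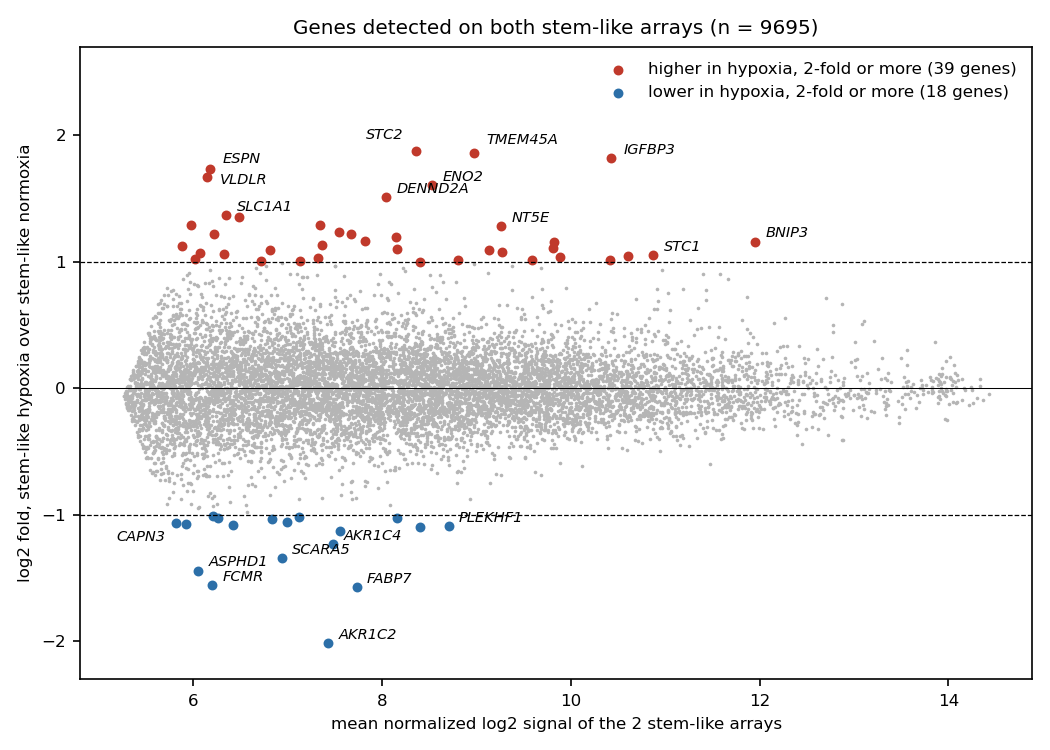
Log2 fold of stem-like hypoxia over stem-like normoxia (vertical axis) against the mean normalized log2 signal of the 2 arrays (horizontal axis) for 9695 genes detected on both; dashed lines mark 2-fold. The 39 higher genes reach from dim signals up to BNIP3 and the 18 lower genes lie mostly at the dim end of the axis, with AKR1C2 at -2.01 the lowest.

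Among genes detected on both arrays, those just inside the 2-fold line were INSIG2 at a log2 fold of 1.0 and FSTL1 at 1.01, and those just outside were PTPRK at 0.99 and TMEM145 at 0.98. On the lower side MIR3142HG at -1.01 and DGCR11 at -1.02 lay just inside, and PRXL2B at -0.98 and VIPR1 at -0.95 just outside. These neighbours differ by far less than the spread between probes.

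Other probes of the called genes gave a partial check. Of the higher genes, 9 had 13 further detected probes, of which 11 shared the direction and 7 also passed 2-fold. The probes against the call were those of MPZL2, which encodes an adhesion protein, with a second probe at -0.40, and of TRIM9, a brain-expressed ubiquitin ligase, with others at -0.49 and 0.44. Of the lower genes, 3 had a further probe each, all 3 below 0 and 1 past 2-fold.

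Secreted factors had the highest median fold of the target groups with several members. STC2, stanniocalcin-2, a secreted glycoprotein linked to calcium and phosphate balance and to stress, stood at 629 in stem-like hypoxia and 171 in stem-like normoxia, 3.67-fold. IGFBP3, which binds insulin-like growth factors outside the cell, stood at 2588 in stem-like hypoxia and 731 in stem-like normoxia, 3.54-fold, and its other probe gave a log2 fold of 1.77. Both were well above the detection floor on each array, so neither fold leans on it. The log2 fold of STC2 was 1.88 here and 1.45 by the authors' second table, so its size depends on background handling.

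The remaining secreted factors moved the same way. ADM, the vasodilator peptide adrenomedullin, stood at 1321 in stem-like hypoxia and 612 in stem-like normoxia, 2.16-fold. STC1, the paralog of STC2, stood at 2700 in stem-like hypoxia and 1300 in stem-like normoxia, 2.08-fold. FGF11, an intracellular member of the fibroblast growth factor family filed here with the ligands, was at 126 in stem-like hypoxia and not detected in stem-like normoxia, at least 3.22-fold. All 10 members of this group with a fold lay above 0, 5 of them were higher, and the median log2 fold was 1.0.

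VEGFA, the main angiogenic growth factor, did not reach the line. Its signals were 133 in stem-like hypoxia and 76.4 in stem-like normoxia, a log2 fold of 0.80. TGFA, a ligand of the epidermal growth factor receptor, stood at 2630 in stem-like hypoxia and 1710 in stem-like normoxia, 0.62. PGF, placental growth factor, lay at 0.26, close to 1 between-probe SD, and APLN, which encodes apelin, at no less than 0.18.

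ANGPTL4, which inhibits lipoprotein lipase and is a target of both the hypoxia-inducible factors and lipid sensors, gave probes that disagree in size. The probe that stands for it by the rule, the brightest over all 4 arrays, read 100 in stem-like hypoxia and 52.4 in stem-like normoxia, a log2 fold of 0.94. Another probe read 617 in stem-like hypoxia and 74.9 in stem-like normoxia, 8.24-fold, and was not detected on either parental array. That probe's fold exceeded those of the 39 higher genes detected on both arrays, and cannot be ranked against the 13 bounds, yet the gene was not counted among them. Which transcripts the probes match was not tested. The 7 other genes in which a further probe passed 2-fold while the standing one did not were PLOD2, MYADM, PRKCSH and TIPRL upward and ETNK1, HSD17B11 and PRR13 downward, and they were picked out after their values were seen.

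Genes that act on mitochondria formed the next group. COXFA4L2, also known as NDUFA4L2, a mitochondrial protein that lowers complex I activity in low oxygen, was at 201 in stem-like hypoxia and not detected in stem-like normoxia, at least 5.13-fold. BNIP3, a receptor that sends mitochondria to autophagy, stood at 5938 in stem-like hypoxia and 2657 in stem-like normoxia, 2.24-fold. Its relative BNIP3L stood at 895 in stem-like hypoxia and 423 in stem-like normoxia, 2.11-fold, with a second probe at a log2 fold of 1.32. AK4, a mitochondrial adenylate kinase, stood at 1938 in stem-like hypoxia and 957 in stem-like normoxia, 2.02-fold, and its 3 other probes gave 0.52, 1.01 and 1.19. The group thus holds a gene seen in hypoxia alone and genes seen on both arrays at about 2-fold.

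Of the 11 mitochondrial members with a fold, 5 were higher, 9 lay above 0 and the median was 0.95. PDK3, a kinase that switches off pyruvate dehydrogenase, stood at 635 in stem-like hypoxia and 315 in stem-like normoxia, 2.02-fold, although its other probe gave a log2 fold of 0.37. The related kinase gene PDK1, the textbook target of the 2, was barely seen, at 47.3 in stem-like hypoxia and below detection in stem-like normoxia. HIGD1A and CHCHD2, which act at the respiratory chain, lay at -0.02 and -0.08.

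Genes that hold back growth or answer stress included TMEM45A, a transmembrane protein gene, at 960 in stem-like hypoxia and 264 in stem-like normoxia, 3.64-fold, with its other probe at a log2 fold of 2.03. INSIG2, which keeps the activator of sterol synthesis inactive, stood at 477 in stem-like hypoxia and 238 in stem-like normoxia, 2.0-fold. DDIT4, an inhibitor of the mTOR growth pathway, stood at 4386 in stem-like hypoxia and 2404 in stem-like normoxia, a log2 fold of 0.87. Among the 8 members, 2 were higher and 7 lay above 0.

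NDRG1, a stress gene often used as a reporter of hypoxia, was already bright in stem-like normoxia. It stood at 3056 in stem-like hypoxia and 1777 in stem-like normoxia, a log2 fold of 0.78. In parental cells it stood at 509 in hypoxia and 98.4 in normoxia, a log2 fold of 2.37. ANKRD37, an ankyrin repeat gene induced in hypoxia, showed a similar contrast, at 0.56 in stem-like and 1.80 in parental cells. Neither difference between the cell states was tested.

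Among surface and signalling genes, 4 of 12 were higher and all 12 lay above 0. Of all 10579 genes, 52 were higher and 5316 lay above 0. ESPN, KISS1R and SPAG4 of this group were listed with earlier results of these data known, so the counts only describe it. VLDLR, a lipoprotein receptor, stood at 126 in stem-like hypoxia and 39.7 in stem-like normoxia, 3.18-fold. ESPN, an actin-bundling protein gene, stood at 132 in stem-like hypoxia and 39.6 in stem-like normoxia, 3.33-fold. Both normoxia values sit at the edge of detection. KISS1R, the kisspeptin receptor gene, at 150, and SPAG4, a nuclear envelope protein gene, at 102, were detected in stem-like hypoxia alone, at least 3.82-fold and 2.60-fold.

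The transcription regulators of the target list did not move as a group. None of 9 was higher, 5 lay below 0 and the median was -0.05. ZNF395, a zinc finger gene, came nearest at 930 in stem-like hypoxia and 477 in stem-like normoxia, a log2 fold of 0.96. BHLHE40, a repressor of the circadian clock that is a usual target, lay at 0.13, and MXI1, an antagonist of MYC, at -0.27.

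Over the whole list of targets outside glycolysis, 16 of 51 members with a fold were higher and 0 lower, where 0.492% of all genes were higher. Above 0 lay 43 and below 0 lay 8. The median log2 fold was 0.69, against 0.00 for all genes, and 0.44 by the authors' second table. Several members, such as ESPN, KISS1R and SPAG4, were listed with earlier results of these data known, so the count describes the list and supports nothing. Of members with a probe, 17 were not detected on either stem-like array, among them CXCR4, LOX, EDN1, EPO and CA12.

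**Figure D2:**
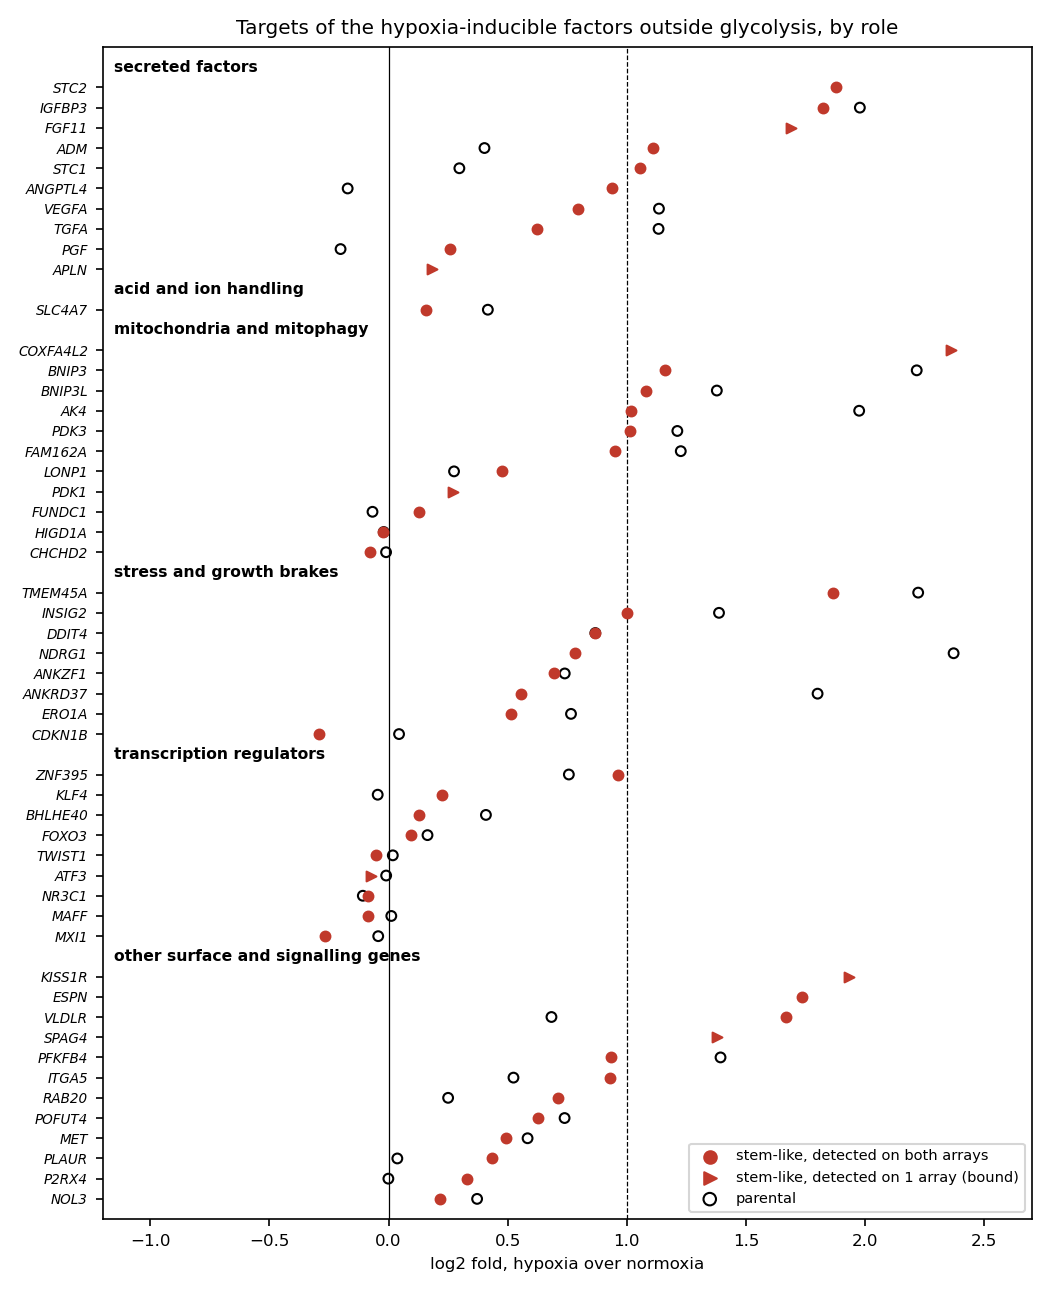
Log2 fold of hypoxia over normoxia for 51 targets of the hypoxia-inducible factors outside glycolysis, grouped by role; filled points are stem-like cells, with arrowheads for bounds, and open circles are parental cells where the gene had a fold there. In stem-like cells 16 points lie at or past the dashed 2-fold line, from INSIG2 at 1.0 to COXFA4L2 at no less than 2.36, and transcription regulators lie around 0.

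The pathway's own components stayed near 0. HIF1A, the main alpha subunit, stood at 864 in stem-like hypoxia and 861 in stem-like normoxia, a log2 fold of 0.00, and its other probes gave -0.17 and -0.30. EPAS1, the second alpha subunit, stood at 242 in stem-like hypoxia and 228 in stem-like normoxia, and VHL at 813 in stem-like hypoxia and 814 in stem-like normoxia. EPAS1 and VHL thus differed by less than the SD between probes, as did HIF1A by all but 1 of its probes. ARNT2, a beta subunit, at 0.46, and CITED2, which competes for the coactivators of the factors, at 0.44, were the highest of 12 components, of which none was past 2-fold.

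EGLN1, the prolyl hydroxylase that is both sensor and target of the pathway, stood at 164 in stem-like hypoxia and 128 in stem-like normoxia, a log2 fold of 0.35. In parental cells it stood at 287 in hypoxia and 135 in normoxia, 1.09. The normoxia levels were close and the hypoxia levels differ, a contrast that was not tested. EGLN3 and HIF3A, further members of the pathway induced in hypoxia in many cells, were not detected on either stem-like array.

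Genes of glucose uptake and breakdown were shifted upward by less than 2-fold for the most part. Of 26 with a fold, 2 were higher, 0 lower and 22 above 0, and the median log2 fold was 0.43, where 52 of all 10579 genes were higher and 5316 lay above 0. ENO2, the neuronal form of enolase, stood at 646 in stem-like hypoxia and 211 in stem-like normoxia, 3.05-fold. ALDOC, an aldolase form, stood at 2246 in stem-like hypoxia and 1085 in stem-like normoxia, 2.07-fold. These 2 are tissue-restricted forms of their enzymes, while the usual forms differed less, with ENO1 at 0.25 and ALDOA at 0.13 by its standing probe and 0.38 by another.

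Along the pathway, SLC2A1, the glucose transporter GLUT1, stood at 2461 in stem-like hypoxia and 1528 in stem-like normoxia, 0.69, and SLC2A3, the transporter GLUT3, at 0.21. Hexokinase genes HK1 and HK2 lay at 0.51 and 0.55. At the committed step, the phosphofructokinase genes PFKL and PFKP lay at 0.89 and 0.76, while the muscle form PFKM lay at -0.38. PFKFB4, which makes the activator of that step, stood at 2764 in stem-like hypoxia and 1446 in stem-like normoxia, 0.93. Upper steps had a median of 0.53 and lower steps 0.25.

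In the later steps, PGK1, phosphoglycerate kinase, stood at 8549 in stem-like hypoxia and 5203 in stem-like normoxia, 0.72, with its other probe at 0.78. LDHA, lactate dehydrogenase A, stood at 15590 in stem-like hypoxia and 14847 in stem-like normoxia, 0.07. Its 2 other probes gave 0.33 and 0.70, so the standing probe gives the smallest of 3 sizes. The lactate transporter gene SLC16A7 lay at -0.67 on dim signals, 43.3 in stem-like hypoxia and 69.0 in stem-like normoxia.

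Beyond pyruvate, citrate cycle and respiratory chain genes leaned the other way, while the group of pyruvate dehydrogenase and its kinases did not. The citrate cycle genes had a median log2 fold of -0.09, with 13 of 18 below 0. MPC2 and MPC1, which form the carrier of pyruvate into mitochondria, lay at -0.53 and -0.33, and a second MPC1 probe at -0.97. They were listed with pyruvate dehydrogenase and its kinases, a group with 9 of 13 above 0 and a median of 0.17. Of 67 genes of oxidative phosphorylation, 55 lay below 0, with a median of -0.13 and none past 2-fold. By complex, 24 of 33 genes of complex I, 8 of 9 of complex III, 10 of 10 of complex IV and 13 of 15 of complex V lay below 0, where 5120 of all 10579 genes did. The single values are within the spread between probes for most members, and the lowest was NDUFB1, a complex I subunit gene, at 73.9 in stem-like hypoxia and 102 in stem-like normoxia, -0.46. With median scaling 62 of 67 lay below 0 and the list's median was -0.22, and 55 did by the authors' second table. That scaling lowered other lists too, the housekeeping genes to a median of -0.07 with 10 of 12 below 0 and the ribosome and translation genes to -0.15 with 30 of 39 below 0, where all genes had a median of -0.03.

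**Figure D3:**
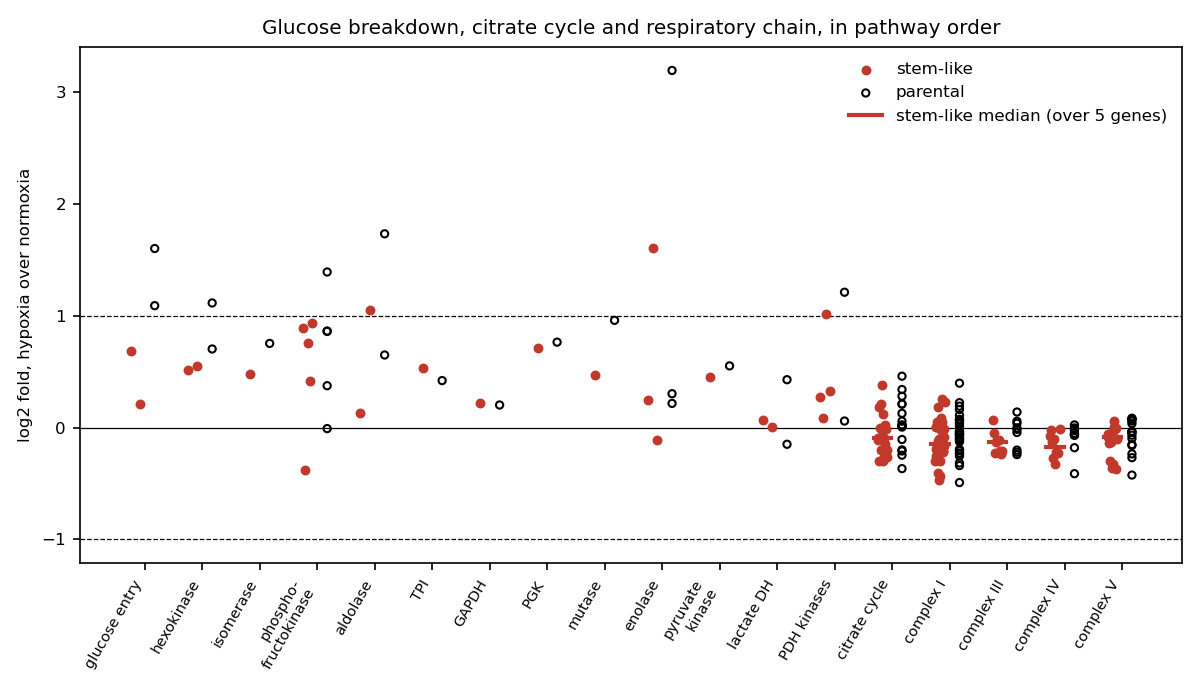
Log2 fold of hypoxia over normoxia (vertical axis) for genes of glucose breakdown, pyruvate dehydrogenase kinases, the citrate cycle and the respiratory chain in pathway order (horizontal axis); filled points are stem-like cells, open circles parental cells, and bars stem-like medians where over 5 genes are drawn. ENO2 at 1.61, ALDOC at 1.05 and PDK3 at 1.01 lie past 2-fold in stem-like cells, and complex IV genes all lie below 0.

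Glycogen handling had 1 higher gene of 14, where 52 of all 10579 genes were higher and 5120 lay below 0. GBE1, the branching enzyme, stood at 818 in stem-like hypoxia and 383 in stem-like normoxia, 2.13-fold. PYGL, liver glycogen phosphorylase, lay at 0.53 and PGM1, which links glycogen to glycolysis, at 0.44. The pentose phosphate enzymes leaned the other way, with PGD at -0.40, TKT at -0.30 and TALDO1 at -0.27, and 4 of 6 below 0.

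Enzymes that modify collagen all lay above 0. Of 11 with a fold, 1 was higher, and the median was 0.43, where 52 of all 10579 genes were higher and 5316 lay above 0. P4HA2, a subunit of collagen prolyl hydroxylase, stood at 1357 in stem-like hypoxia and 607 in stem-like normoxia, 2.24-fold, and its other probes gave 1.0 and 1.24. P4HA1, the other subunit form, stood at 1087 in stem-like hypoxia and 630 in stem-like normoxia, 0.79. PLOD2, a lysyl hydroxylase that sets collagen crosslinks, stood at 4203 in stem-like hypoxia and 2246 in stem-like normoxia, 0.90, with other probes at 0.50 and 1.38. PLOD1 lay at 0.67 and P4HB, the shared partner of the prolyl hydroxylase subunits, at 0.47. With median scaling, 10 of the 11 lay above 0. The lysyl oxidase genes LOX, LOXL1, LOXL2 and LOXL4 were not detected, and LOXL3 lay at 0.29.

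The listed matrix genes had a smaller median than the modifying enzymes. Of 33 matrix genes in the list, 1 was higher and 1 lower, and 27 lay above 0 with a median of 0.17. Of all 10579 genes, 52 were higher, 19 lower and 5316 above 0. The list does not hold every matrix gene, and LAMB3, a laminin chain 2.35-fold higher that is described below, was not in it. PLAU, the protease urokinase, stood at 338 in stem-like hypoxia and 150 in stem-like normoxia, 2.25-fold. COL5A1, a fibrillar collagen gene, stood at 179 in stem-like hypoxia and 95.5 in stem-like normoxia, 0.90. MGP, matrix Gla protein, an inhibitor of calcification, went the other way at 232 in stem-like hypoxia and 496 in stem-like normoxia, 2.14-fold lower, with its second probe at a log2 fold of -1.38.

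Oxygen-dependent demethylases that carry a JmjC domain had no member past 2-fold among 15, and their median was 0.07, or -0.02 by the mean of the detected probes. KDM5B, an H3K4 demethylase, lay at 0.57 and RIOX1, a ribosomal oxygenase, at 175 in stem-like hypoxia and 291 in stem-like normoxia, -0.74. KDM3A, an H3K9 demethylase and a usual hypoxia target, stood at 137 in stem-like hypoxia and 149 in stem-like normoxia, -0.12. In parental cells KDM3A stood at 237 in hypoxia and 111 in normoxia, 1.10, and KDM4B lay at 0.07 in stem-like and 0.81 in parental cells. These contrasts between the cell states were not tested.

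The higher genes outside those lists had varied roles. NT5E, the surface enzyme CD73 that makes adenosine and a marker of dedifferentiated melanoma, stood at 958 in stem-like hypoxia and 394 in stem-like normoxia, 2.43-fold. DENND2A, which encodes an activator of a Rab GTPase, stood at 445 in stem-like hypoxia and 156 in stem-like normoxia, 2.85-fold. TXNIP, which binds thioredoxin and limits glucose uptake, stood at 1353 in stem-like hypoxia and 660 in stem-like normoxia, 2.05-fold. Each of the 3 was well above the floor on both arrays, but of them NT5E and DENND2A alone stayed past 2-fold under all settings.

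LAMB3, a chain of the basement membrane protein laminin-332, stood at 286 in stem-like hypoxia and 122 in stem-like normoxia, 2.35-fold, and ITGB4, a chain of the integrin that binds it, was at 82.8 in stem-like hypoxia and not detected in stem-like normoxia, at least 2.12-fold. TF, the iron carrier transferrin, stood at 1098 in stem-like hypoxia and 542 in stem-like normoxia, 2.02-fold. ANG, the ribonuclease angiogenin, stood at 254 in stem-like hypoxia and 104 in stem-like normoxia, 2.44-fold, with a second probe at a log2 fold of 0.47. EGR1, an early growth response factor, stood at 199 in stem-like hypoxia and 98.8 in stem-like normoxia, 2.01-fold, and APAF1, the scaffold of the apoptosome, at 229 in stem-like hypoxia and 112 in stem-like normoxia, 2.04-fold.

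Dimmer genes among the higher ones included SLC1A1, a glutamate transporter gene, at 131 in stem-like hypoxia and 50.7 in stem-like normoxia, 2.58-fold, NEURL1B, a ubiquitin ligase gene, at 2.56-fold, and the kinase gene MAST3 at 2.45-fold. BEND5 was at 106 in stem-like hypoxia and not detected in stem-like normoxia, at least 2.69-fold, and ZP1, RIMKLA and SNX16 were bounds of at least 2.57-fold, 2.51-fold and 2.12-fold. HBA2, an alpha globin gene with a near-identical copy, was a bound of at least 2.45-fold, and which copy its probe measured is uncertain. Under the authors' second table none of these dim genes was past 2-fold.

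**Figure D4:**
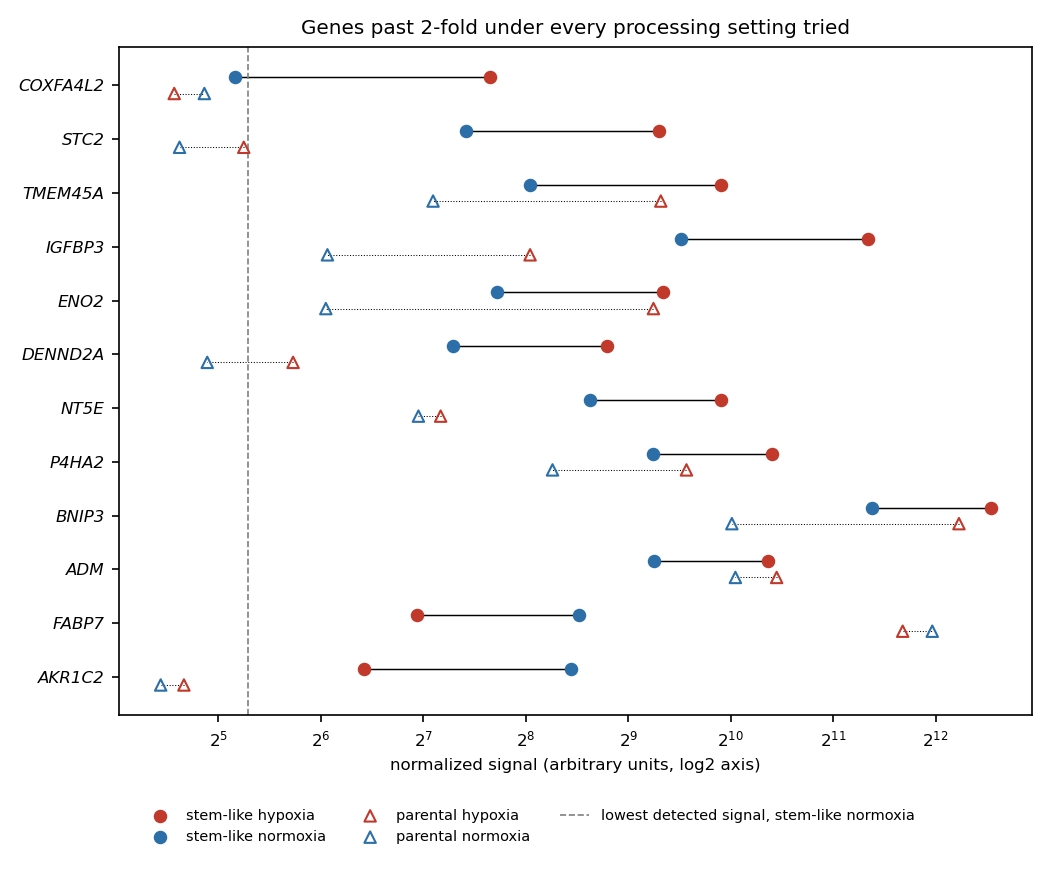
Normalized signal on a log2 axis for the 12 genes past 2-fold under every setting tried; circles are stem-like and triangles parental cells, red is hypoxia and blue normoxia, and the dashed line is the lowest detected signal in stem-like normoxia. The 10 higher genes have their red circle to the right, and FABP7 and AKR1C2 have it to the left; the parental triangles of COXFA4L2, STC2 and AKR1C2 lie at or below detection.

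Genes lower in stem-like hypoxia were led by AKR1C2, an aldo-keto reductase of steroid metabolism, at 85.9 in stem-like hypoxia and 347 in stem-like normoxia, 4.04-fold lower. AKR1C4 stood at 117 in stem-like hypoxia and 274 in stem-like normoxia, 2.35-fold lower, and AKR1C3 at 334 in stem-like hypoxia and 436 in stem-like normoxia, a log2 fold of -0.39. These genes belong to a family of similar sequences, and whether each probe tells them apart was not tested. All 5 aldo-keto reductases with a fold lay below 0, and the AKR1C probes named here were not detected on either parental array.

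FABP7, a fatty acid binding protein of glia and neural crest derivatives, stood at 123 in stem-like hypoxia and 366 in stem-like normoxia, 2.98-fold lower. In parental cells it stood at 3278 in hypoxia and 4004 in normoxia. The stem-like cells thus held far less of it than parental cells in either condition. CAPN3, a calpain seen in pigment cells, stood at 39.0 in stem-like hypoxia and 81.4 in stem-like normoxia, 2.09-fold lower, against 3006 in parental hypoxia and 3152 in parental normoxia. PHACTR1, a regulator of actin and phosphatase, stood at 128 in stem-like hypoxia and 279 in stem-like normoxia, 2.19-fold lower.

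Other lower genes were FCMR, an Fc receptor gene, at 42.8 in stem-like hypoxia and 126 in stem-like normoxia, and SCARA5, a scavenger receptor gene, at 76.9 in stem-like hypoxia and 195 in stem-like normoxia. ASPHD1 stood at 40.3 in stem-like hypoxia and 110 in stem-like normoxia, a log2 fold of -1.44, while its other probe gave -0.49. PLEKHF1, a gene of endosome and lysosome traffic, stood at 286 in stem-like hypoxia and 609 in stem-like normoxia, 2.13-fold lower. PLXND1, a semaphorin receptor gene, was not detected in stem-like hypoxia and at 76.6 in stem-like normoxia, at least 2.06-fold lower. Only AKR1C2 and FABP7 stayed past 2-fold under all settings tried.

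Pigment cell genes as a list had a median log2 fold of -0.18, with 1 of 18 lower and 12 below 0. MITF, the master factor of melanocytes, stood at 118 in stem-like hypoxia and 162 in stem-like normoxia, -0.46, and RAB27A, which moves melanosomes, at -0.62. Genes of dedifferentiated melanoma leaned upward, with 2 of 15 higher, IGFBP3 and NT5E, 12 above 0 and a median of 0.35. AXL, a receptor tyrosine kinase, lay at 0.51 and FOSL1, a subunit of the AP-1 factor, at 0.65. In parental cells the medians of the 2 lists were 0.04 and -0.01. Among all 10579 genes, 52 were higher, 19 lower, 5316 above 0 and 5120 below 0. Both lists were chosen with earlier results of these data known, so their counts only describe them.

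Antioxidant genes leaned downward. Of 39 glutathione genes and targets of NRF2, which drives transcription against oxidants, 36 lay below 0 and none was past 2-fold, with a median log2 fold of -0.16. By comparison, 5120 of all 10579 genes lay below 0. HMOX1, heme oxygenase, stood at 52.9 in stem-like hypoxia and 95.4 in stem-like normoxia, -0.85. PIR, an iron-binding protein gene, stood at 482 in stem-like hypoxia and 775 in stem-like normoxia, -0.68, with a second probe at -0.63. GSR, glutathione reductase, lay at -0.54, and GSTM1, one of a family of similar glutathione transferases whose copies its probe may not tell apart, at -0.66. With median scaling 37 of the 39 lay below 0, and 36 did by the authors' second table.

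Genes of cholesterol and fatty acid synthesis lay below 0 in 19 of 24 cases, with a median of -0.13 and none past 2-fold. SC5D and MVD, sterol pathway enzymes, both lay at -0.64, and IDI1 at -0.50. Antigen presentation genes had a median of -0.23, with 14 of 17 below 0 and all 6 class II genes among them, and interferon response genes -0.20, with 14 of 23 below 0. Of all 10579 genes, 5120 lay below 0. By the authors' second table the medians were -0.11 for antigen presentation genes and -0.08 for interferon response genes. TAP1, a peptide transporter gene, stood at 335 in stem-like hypoxia and 446 in stem-like normoxia, -0.42.

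Inflammation genes had a median of 0.18, with 18 of 28 above 0 and none past 2-fold, where 5316 of all 10579 genes lay above 0. Their median was 0.10 by the authors' second table. IL1B, the cytokine interleukin-1 beta, stood at 1300 in stem-like hypoxia and 748 in stem-like normoxia, 0.80, and CXCL8, a chemokine, at 3519 in stem-like hypoxia and 2170 in stem-like normoxia, 0.70. SOD2, an oxidant-removing enzyme that NF-kB induces, lay at -0.56. The cytokine members named are bright, so their sizes do not depend on the floor.

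Stress pathways were split. In the unfolded protein and integrated stress list 2 of 31 genes were higher, VLDLR and STC2, and 18 lay below 0. By comparison, 52 of all 10579 genes were higher and 5120 lay below 0. VLDLR and STC2 were also counted above among the targets of the hypoxia-inducible factors. GDF15, a stress cytokine, stood at 53.7 in stem-like hypoxia and 102 in stem-like normoxia, -0.93, while in parental cells it stood at 2286 in hypoxia and 1286 in normoxia, 0.83. SESN3, a sestrin gene, lay at -0.92 and BCL2L11, a death-promoting member of the BCL2 family, at -0.85, both on dim signals. Genes of cell cycle and replication had a median of 0.03 and 0 of 55 past 2-fold, from CENPA, a centromere histone gene, at -0.40 to E2F1, a factor of S phase entry, at 0.74.

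**Figure D5:**
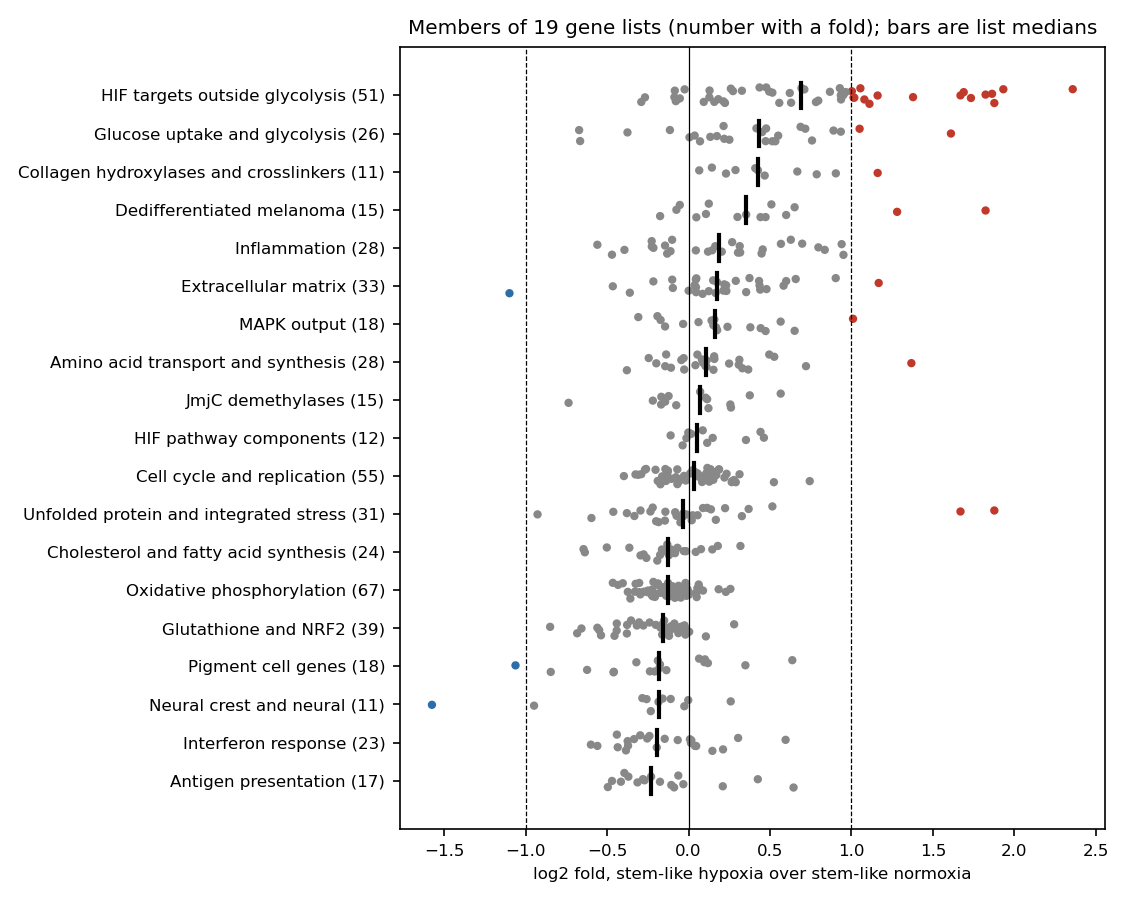
Log2 fold of stem-like hypoxia over stem-like normoxia for members of 19 gene lists, ordered by median; bars are medians, dashed lines mark 2-fold, and numbers in brackets are members with a fold. Targets of the hypoxia-inducible factors outside glycolysis have the highest median of these lists at 0.69, and antigen presentation genes the lowest at -0.23.

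The parental pair, which shares no array with the stem-like pair, gives a second view of the same condition. There 40 of 10425 genes were higher, 0.384%, and 8 were lower, 0.0767%. Of the 52 genes higher in stem-like hypoxia, 33 had a fold in parental cells and 15 were higher there too, which is 45.5% of the 33 and 37.5% of the parental 40. Of the 28 detected on both parental arrays as well, 27 lay above 0. The remaining 19 of the 52 were not detected on either parental array, among them STC2, COXFA4L2, KISS1R, ESPN, FGF11 and PLAU.

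Of the 19 genes lower in stem-like hypoxia, 16 had a fold in parental cells and 0 were lower there. Of 15 detected on both parental arrays, 12 lay below 0. For targets outside glycolysis the parental median was 0.41 over 45 members and for glycolysis 0.55 over 27. Of the 27 higher genes detected on all 4 arrays, 14 had the larger fold in stem-like cells, as did 15 of 15 lower genes. These genes were picked by their stem-like fold, which tilts both counts toward stem-like cells, so the counts cannot show where folds are larger. ENO2 was among the higher genes with the larger fold in parental cells. It stood at 646 in stem-like hypoxia and 211 in stem-like normoxia, and at 607 in parental hypoxia and 66.2 in parental normoxia. The hypoxia levels were close and the normoxia level was higher in stem-like cells. BNIP3 also had the larger fold in parental cells, at 5938 in stem-like hypoxia and 2657 in stem-like normoxia, and at 4797 in parental hypoxia and 1032 in parental normoxia. With 1 array in each group, none of these differences between the cell states could be tested.

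The motif counts over promoters describe the called genes without a test. A match to ACGTG or GCGTG on either strand within 250 bases before the start was present in 43.2% of all 34961 promoters and in 55.4% of the 12459 promoters of genes with a fold. It was present in 65.6% of 64 promoters of 41 matched higher genes, in 41.4% of 29 promoters of 14 matched lower genes, and in 75.8% of 66 promoters of 40 matched targets outside glycolysis. Among glycolysis genes it was present in 53.1% of 49 promoters. The glutathione and NRF2 list, where 36 of 39 genes lay below 0, held it in 61.9% of 42 promoters at a mean GC content of 66.2%. The motif contains CG, and the mean GC content was 65.8% for higher genes, 50.9% for lower genes, 66.0% for targets outside glycolysis, 64.1% for glycolysis genes, 63.0% for genes with a fold and 57.2% for all. Glycolysis genes had more GC but a smaller share than genes with a fold. With 50 bases after the start included, the shares were 63.3% for glycolysis genes and 61.0% for genes with a fold. The part of base composition in the shares was not tested. The shares count starts and not genes, so a gene with several starts weighs more. MIR99AHG and PHACTR1 supply many of the starts of the lower genes, and no start of MIR99AHG held a match. A match to TGACNNNGC, the core of the NRF2 motif, on either strand, was searched after values were seen, and was present in 23.8% of 42 promoters of the glutathione and NRF2 list, against 11.9% of promoters of genes with a fold.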

How the data were processed

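RNA of 4 A2058 cultures was labelled with biotin and hybridised to Illumina bead arrays, per the labels. The non-normalized table deposited by the authors gives each probe's linear bead intensity and detection p-value on every array, per the file headers. The other deposited table holds linear intensity with the same quantiles on all arrays, judged from the values; the authors' steps to make it were not stated in the labels.

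Of 47315 identifiers in the first table, 98.0% were out of step with the 47323 lines of values, by up to 8 lines. Lines were realigned along 1 ordered path to the other table, which brought the Spearman rho with it to 1.0, from at most 0.0160, and the rho between 2 probes of a gene, over 6691 genes, to 0.482, from 0.022. The 8 unmatched lines were not used here.

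Intensities were processed with limma 3.58.1 in R 4.3.3: normexp with an offset of 16 and controls inferred from detection p-values, quantile normalization, then log2. The offset shrinks folds of dim genes. Of the probes, 30112 had 1 gene symbol in the platform annotation, which can be old, and were used, except 143 of Y-linked genes and XIST; 8 had several and 17195 none. The probe of a gene with the highest mean over all arrays stands for it. Detection means a p-value under 0.01, met by 16945 probes in stem-like hypoxia and 16432 in stem-like normoxia. The number of arrays limits the precision, and no test was made. The fold step was tested on simulated data.

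The comparison and the 48 gene lists were chosen with earlier results of these data known. Named genes are the 25 highest and 19 lowest folds detected on both arrays, the 10 largest bounds upward and 8 downward, all members of the hypoxia factor, target, glycolysis, collagen enzyme, demethylase and marker lists, up to 6 members of other lists with the largest log2 folds, and 2 genes on each side of both 2-fold lines. TXNIP and APAF1 fall outside this rule and were named with their values known. So were genes given for opposite directions or for a further probe past 2-fold. Promoters are RefSeq's for GRCh38.p14, matched by gene.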

Additional observations from a re-analysis of the deposited data

Results flagged for a closer look

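For 8 genes the log2 fold lay on opposite sides of 0 in the stem-like and the parental pair while 1 of the 2 passed 2-fold. Each side is 1 array against 1, and the difference was not tested. For all but MIR3142HG, 1 of the 2 values was smaller than the SD between probes, 0.23 in stem-like and 0.20 in parental cells. Such a value does not settle a direction. By the authors' second table MIR3142HG lay at -0.44 in stem-like cells. MAST3 in stem-like normoxia, at 40.2, was near the lowest detected signal, and a second RXRG probe gave -0.63 in stem-like cells. MAST3 stood at 1.29 in stem-like and -0.11 in parental cells. PLIN5, a lipid droplet protein gene, stood at 0.20 in stem-like and -1.53 in parental cells. PLCXD1 stood at -0.018 in stem-like and 1.68 in parental cells, KDM3A at -0.12 in stem-like and 1.10 in parental cells, and SERPINA3, a protease inhibitor gene, at -0.13 in stem-like and 1.20 in parental cells. MIR3142HG stood at -1.01 in stem-like and 0.49 in parental cells, ROPN1 at -1.02 in stem-like and 0.00 in parental cells, and RXRG, a retinoid receptor gene, at -1.06 in stem-like and 0.05 in parental cells.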

How the results depend on the processing

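The counts depend on the handling of background. Against 52 higher and 19 lower genes, 11 and 2 were counted without background correction and 10 and 2 with the authors' deposited table, so that 84.6% and 83.3% of calls were higher in place of 73.2%; both leave background in the signal, which shrinks folds of dim genes. Median scaling gave 34 higher, for which the cause was not tested, and a line at 1.5-fold gave 312 higher and 196 lower. The median log2 fold of targets outside glycolysis was 0.69, and it was 0.44 without background correction, 0.44 by the deposited table and 0.46 when undetected probes were kept. No named gene past 2-fold changed direction under any setting. Of 373 named genes, 113 moved by at least the between-probe SD without background correction, and as many with the authors' table. List medians that changed sign over the settings include those of the JmjC demethylases (-0.02 to 0.07), melanoma markers (-0.12 to 0.04) and cell cycle genes (-0.04 to 0.03). No paired analysis was possible because each group holds 1 array. Of the 18 lower genes detected on both arrays, 15 lay among the dimmer genes, where folds spread more.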
